A study of Mus musculus with 9 samples.

Results

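Cholesterol synthesis and its regulation were examined in mouse pancreatic islets through 30 genes, read from the table of raw counts over all 9 libraries. They were chosen by name for their part in the pathway, with earlier results of these data known. All 30 were found among the 56941 gene identifiers of that table, and all 30 passed the low-count filter that left 18548 genes for testing. The islets came from wild-type male C57BL/6J mice that were 15 weeks old when feeding began and stayed on their diet for 9 months. Controls ate a low fat diet with 10% fat (LFD, 3 libraries). The other groups ate a high fat diet with 60% fat (HFD, 2 libraries) or a ketogenic diet with 89.9% fat (KD, 4 libraries). No transgene or drug was involved. The labels do not say whether a library came from 1 animal or from several, so p-values measure the spread between these libraries, which may in part be technical. The study asked how a ketogenic diet affects islet gene expression.

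Cells make cholesterol from acetyl-CoA through the mevalonate pathway, which first yields isoprenoid units, joins them into squalene, closes squalene into the first sterol, lanosterol, and then trims lanosterol to cholesterol. The pathway is controlled by sterol regulatory element-binding proteins (SREBPs), membrane-bound transcription factors that the escort protein SCAP carries from the endoplasmic reticulum to the Golgi when sterols are low. INSIG proteins hold SCAP back when sterols are plentiful, and liver X receptors (LXRs), which sense oxidised sterols, turn on genes of cholesterol export. Beta cells are known to secrete less insulin when cholesterol accumulates in their membranes.

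Library totals ran from 15513502 to 26588390 counts, and the counts of the 30 genes ran from 35 (Mvd) to 8549 (Abca1) in a single library. Together the 30 genes took between 0.0613% (KD replicate 1) and 0.170% (HFD replicate 2) of a library's counts. Levels below are given as CPM, in which each library is brought to a common size after scaling by TMM, a method that matches libraries on the bulk of their genes. On that scale the 30 genes summed to between 1038 and 1290 CPM. The islet label was checked against Ins2, an insulin gene, which stood at 17780 to 66140 CPM in every library. The preparations also held exocrine tissue. All 25 markers of acinar cells, the enzyme-making cells around the islets, were detected in every library and took 15.1% to 35.7% of counts on LFD, 11.3% to 18.9% on HFD, and 60.6%, 44.6%, 56.3% and 20.4% in KD replicates 1 to 4. The KD and LFD shares overlapped (exact two-sided permutation p = 0.171). Lymphocyte markers took 0.00855% to 0.155% on LFD, 0.00695% to 0.0111% on HFD and 0.000396% to 0.00141% on KD (exact permutation p = 0.0286, the smallest that the 35 splits allow), and 10 of the 12 were at 0 in at least 1 library. Macrophage markers took 0.01% to 0.0173% on LFD, 0.0119% to 0.0194% on HFD and 0.00244% to 0.00877% on KD (exact permutation p = 0.0571, KD against LFD). Fibroblast and stellate markers took 0.0322% to 0.0556% on LFD, 0.0366% to 0.0426% on HFD and 0.00748% to 0.0227% on KD (exact permutation p = 0.0286, KD against LFD). Duct markers took 0.0416% to 0.0452% on LFD, 0.0295% to 0.0352% on HFD and 0.0118% to 0.0264% on KD (exact permutation p = 0.0571, KD against LFD). None of these 4 lists overlapped between LFD and KD, and the part of the macrophage, fibroblast and duct lists in the results for the sterol genes was not tested. All these values are shares of a library's counts, so a larger acinar share by itself lowers the others. They were not scaled by TMM as the sterol gene levels were. The TMM factors ran from 1.053 to 1.255 on LFD and from 0.5415 to 1.169 on KD. In such bulk tissue, fewer cells of a type, less RNA per cell and dilution by acinar RNA cannot be told apart.

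On the ketogenic diet 2 of the 30 sterol genes were higher than on the low fat diet: Lss, which closes squalene into lanosterol, by 1.44-fold, and Scap, the SREBP escort, by 1.53-fold. No sterol gene passed the test in the lower direction, and the estimates of the other 28 ran from -0.38 (Abca1) to 0.72 (Hsd17b7) on the log2 scale. In edgeR's quasi-likelihood test, adjusted by Benjamini-Hochberg over all genes, 2 of 30 is 6.67%, beside 4.12% of all genes called in this comparison in either direction and 0.981% called higher. At an unadjusted p below 0.05 there were 10 sterol genes, all higher on KD, or 33.3% beside 22.7% of all genes. The KD and LFD libraries did not overlap for 8 sterol genes, or 26.7% beside 19.7% of all genes. All 8 were higher on KD, where 9.69% of all genes were. The median log2 difference was 0.18 over the 30 genes and -0.02 over all genes tested. It was 0.084 over the 30 genes without LFD replicate 1, and 0.021 with a lymphocyte marker score as a covariate. The 18 synthesis enzymes had a median of 0.25, with 13 estimates above 0. The 12 genes of regulation, transport and export had a median of -0.07, with 5 above 0. With the lymphocyte score these medians were 0.021 and 0.02, with 10 and 6 estimates above 0. With an acinar marker score as a covariate they were 0.40 and 0.014. Lymphocyte shares did not overlap between LFD and KD, so the fit with that score separates it from diet poorly. In that fit the SE of Lss was 0.345, beside 0.123 in the main fit, and that of Scap 0.435, beside 0.149.

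**Figure D1:**
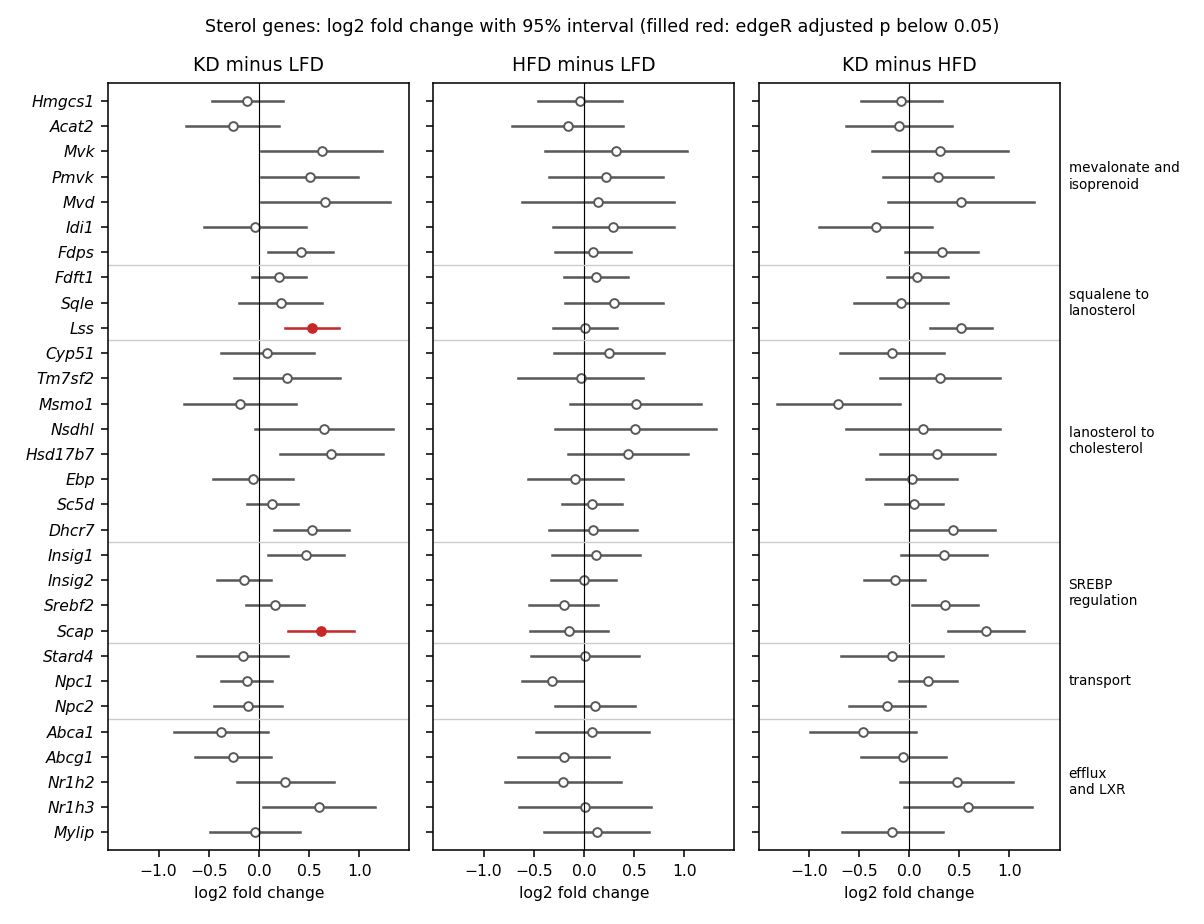
Log2 fold change of each of the 30 sterol genes (points) with its 95% interval (lines) in the 3 pairwise diet comparisons, grouped by role along the pathway. Only Lss and Scap in KD minus LFD are filled, at 0.53 and 0.62, because they alone had an edgeR adjusted p below 0.05. Most other intervals cross 0.

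The promoters of 4 of these genes are shown because SREBPs act through short elements near the start of their targets: Lss and Scap as the genes that changed, Insig1 as a well-known SREBP target, and Hmgcs1 as the only gene with a match to the element searched. Each run is the 250 bases before the annotated start, from RefSeq on build GRCm38.p6, plus strand. Capitals mark CCAAT (the NF-Y box, read as ATTGG on the other strand), GGGCGG (the Sp1 box, read as CCGCCC) and, in Hmgcs1, the core of the sterol regulatory element, TCACNCCAC.
Hmgcs1, chr13:119690101-119690350: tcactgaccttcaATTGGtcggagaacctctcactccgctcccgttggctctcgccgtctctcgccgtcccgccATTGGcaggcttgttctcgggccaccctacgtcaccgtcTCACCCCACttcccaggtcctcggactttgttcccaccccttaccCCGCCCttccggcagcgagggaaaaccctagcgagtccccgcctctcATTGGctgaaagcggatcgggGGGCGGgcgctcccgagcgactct
Lss, chr10:76531355-76531604: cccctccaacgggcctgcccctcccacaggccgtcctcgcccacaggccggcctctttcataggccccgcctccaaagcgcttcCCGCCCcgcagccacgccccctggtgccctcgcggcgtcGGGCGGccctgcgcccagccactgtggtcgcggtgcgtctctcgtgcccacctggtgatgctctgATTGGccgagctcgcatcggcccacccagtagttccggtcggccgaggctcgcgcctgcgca
Insig1, chr5:28071162-28071411: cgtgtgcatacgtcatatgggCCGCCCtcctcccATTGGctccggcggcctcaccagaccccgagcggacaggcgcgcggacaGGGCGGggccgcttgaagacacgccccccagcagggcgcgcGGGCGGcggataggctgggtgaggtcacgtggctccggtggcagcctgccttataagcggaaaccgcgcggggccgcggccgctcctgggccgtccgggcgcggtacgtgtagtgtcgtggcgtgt
Scap, chr9:110333106-110333355: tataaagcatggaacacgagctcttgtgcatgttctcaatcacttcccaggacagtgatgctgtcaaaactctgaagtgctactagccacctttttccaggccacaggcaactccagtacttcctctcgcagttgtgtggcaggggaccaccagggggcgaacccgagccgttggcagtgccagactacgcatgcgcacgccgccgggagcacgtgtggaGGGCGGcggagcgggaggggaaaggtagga

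A promoter window, from 250 bases before the start to 50 after it, was at hand for 24 of the 30 genes, with more than 1 window for 5 of them; the others are Fdps, Fdft1, Sqle, Stard4, Npc1 and Abcg1. TCACNCCAC, searched on both strands, was found in 1 of the 24 genes (Hmgcs1, where it begins 137 bases before the start), or 4.17%, beside 1.44% of the 27025 genes of the table. CCAAT was found in 19 of the 24 genes (79.2%), beside 41.1% of all genes of that table. Among the 15 synthesis enzymes with a window, 14 held it (93.3%), including Lss. Among the 9 other members with a window, 5 held it (55.6%). GGGCGG was found in 21 of the 24 genes (87.5%), beside 38.2% of all genes of that table. The 27025 genes were not limited to those that passed the low-count filter, as all 30 sterol genes did. The shares therefore compare unlike sets. Scap has 2 overlapping windows, of which the second is printed, and neither held CCAAT. These matches are descriptions of letters, and none was tested against the diets.

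The mevalonate and isoprenoid steps were covered by 7 genes, and none passed the test between KD and LFD. At an unadjusted p below 0.05 there were 4 (57.1%, beside 22.7% of all genes). The KD and LFD libraries did not overlap for 3 (42.9%, beside 19.7% of all genes). Hmgcs1 makes HMG-CoA at the entry of the pathway. Its level was 40.3, 40.0 and 52.1 CPM in LFD replicates 1 to 3, 46.4 and 39.5 in HFD replicates 1 and 2, and 37.4, 51.9, 37.8 and 35.9 in KD replicates 1 to 4. The diets overlapped fully, and the KD minus LFD difference was -0.12 on the log2 scale (95% interval -0.47 to 0.24, edgeR adjusted p = 0.711). Fdps makes farnesyl diphosphate, the branch point between sterols and prenylated proteins. Its level was 17.1, 19.5 and 19.9 CPM on LFD, 21.01 and 19.2 on HFD, and 27.8, 26.6, 20.04 and 26.0 on KD. Every KD library lay above every LFD library, KD replicate 3 by the least, and the difference of 0.42 ± 0.15 (SE) missed the threshold (adjusted p = 0.125). Fdps shares 26.7% of its exon bases with the gene model Gm43738 on the same strand in GENCODE M21, so its reads could be split or left out in counting.

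Mvk, Pmvk and Mvd catalyse the successive phosphorylations and the decarboxylation of mevalonate, and they gave the largest estimates of this stretch. They were 0.63 ± 0.28, 0.51 ± 0.22 and 0.66 ± 0.29 (SE) on the log2 scale, with unadjusted p-values of 0.0438, 0.041 and 0.0448 and adjusted p-values of 0.208, 0.202 and 0.21. Mvk and Pmvk did not overlap between KD and LFD, whereas Mvd did, since LFD replicate 2 stood at 4.35 CPM and KD replicate 4 at 4.08 CPM. These are low-count genes, with group means of 3.37 to 6.6 CPM over the 3 diets, and their intervals are wide: that of Mvd ran from 0.02 to 1.303. Acat2, the thiolase that supplies acetoacetyl-CoA, and Idi1, the isopentenyl diphosphate isomerase, had estimates of -0.26 and -0.04, both with intervals across 0.

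From squalene to lanosterol the pathway has 3 genes, and Lss stood apart from its neighbours in its separation of the diets. Lss was at 24.8, 29.0 and 28.7 CPM in LFD replicates 1 to 3, at 29.8 and 25.6 in HFD replicates 1 and 2, and at 41.4, 36.3, 41.4 and 39.6 in KD replicates 1 to 4. All 4 KD libraries lay above all 5 libraries of the other diets, which overlapped each other. The LFD mean was 27.5 ± 2.32 CPM (SD, n = 3), the HFD mean 27.7 ± 2.94 (SD, n = 2) and the KD mean 39.7 ± 2.42 (SD, n = 4). KD exceeded LFD by 0.53 ± 0.12 (SE) on the log2 scale (95% interval 0.26 to 0.80, edgeR adjusted p = 0.0374). The antisense gene 4930483K19Rik, which overlaps Lss, had 0 counts in all libraries. With single libraries left out the estimate ran from 0.46 to 0.57, and the adjusted p was 0.16 without LFD replicate 1, 0.0828 without LFD replicate 2, and 0.0784, 0.0724 and 0.108 without KD replicates 1, 2 and 3. With the acinar score as a covariate the difference was 0.52 (adjusted p = 0.0329). With the lymphocyte score, which called 0 genes of the whole table, it was 0.44 ± 0.345 (SE, adjusted p = 0.589). The adjusted p was 0.0577 among genes with at least 5 CPM in 3 libraries, and 0.194 without KD replicates 1 and 3.

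The other pair of this stretch did not separate the diets. Sqle, the squalene epoxidase and a rate-limiting step, was at 43.1, 57.3 and 65.5 CPM on LFD, 64.5 and 71.4 on HFD, and 49.0, 72.6, 56.0 and 79.2 on KD. The LFD and KD ranges overlapped, and KD replicates 1 and 3, whose acinar share passed 50%, were the lowest of their diet. The difference was 0.22 (adjusted p = 0.53). It was 0.47 (adjusted p = 0.0427) with the acinar score as a covariate and 0.45 (adjusted p = 0.27) without KD replicates 1 and 3. Fdft1, the squalene synthase, had an estimate of 0.20 (adjusted p = 0.354) and shares 18.3% of its exon bases with Ctsb on the opposite strand.

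**Figure D2:**
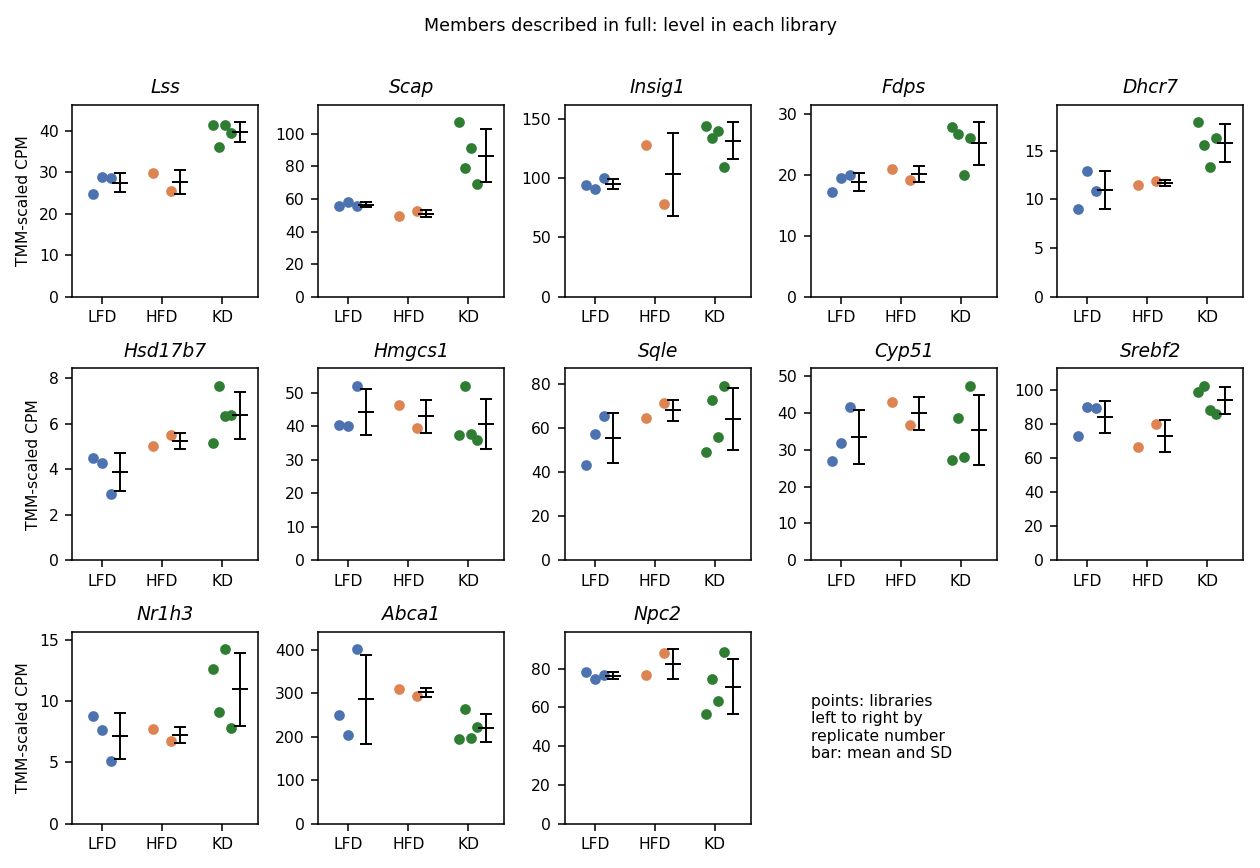
Level of the 13 sterol genes described library by library, in TMM-scaled CPM (each vertical axis starts at 0), with the libraries of each diet as points and the mean and SD as bars (3 LFD, 2 HFD and 4 KD libraries). The KD points of Lss and Scap lie above all LFD and HFD points, while those of Hmgcs1, Sqle and Cyp51 spread across the LFD range.

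The 8 enzymes that turn lanosterol into cholesterol had 0 calls between KD and LFD by edgeR. At an unadjusted p below 0.05 there were 2, Hsd17b7 and Dhcr7 (25%, beside 22.7% of all genes). DESeq2 called 1 of the 8, Hsd17b7, beside 9.56% of all genes. Limma-voom, here always with sample quality weights, called both, beside 10.1% of all genes. Hsd17b7 is a reductase that acts while methyl groups are removed from the sterol ring. It was at 4.48, 4.26 and 2.91 CPM on LFD, 5.00 and 5.49 on HFD, and 5.14, 7.66, 6.32 and 6.36 on KD. Both fat-rich diets lay above LFD without overlap, by 0.72 ± 0.23 (SE, adjusted p = 0.104) for KD and 0.44 ± 0.27 (SE, adjusted p = 0.599) for HFD. Dhcr7 catalyses the last step to cholesterol in one branch of the pathway. It was at 9.01, 12.9 and 10.9 CPM on LFD, 11.5 and 11.9 on HFD, and 17.9, 15.6, 13.3 and 16.3 on KD. The lowest KD library was just above the highest LFD library, and the difference was 0.53 ± 0.17 (SE, adjusted p = 0.104).

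Cyp51, the lanosterol demethylase, was at 27.0, 31.9 and 41.5 CPM on LFD, 43.0 and 36.8 on HFD, and 27.2, 38.6, 28.1 and 47.4 on KD. Its KD libraries split like those of Sqle, with replicates 1 and 3 low and replicates 2 and 4 high. The KD minus LFD difference was 0.08 (adjusted p = 0.854), against 0.34 (adjusted p = 0.191) with the acinar score and 0.36 (adjusted p = 0.397) without KD replicates 1 and 3. Msmo1, a sterol methyl oxidase, showed the same split more widely, at 27.1 and 26.2 CPM in KD replicates 1 and 3 and 47.2 and 49.9 CPM in KD replicates 2 and 4. Its LFD libraries stood between, at 40.2 to 45.7 CPM. Nsdhl, a dehydrogenase of the same demethylation, had an estimate of 0.65 ± 0.31 (SE, adjusted p = 0.247), and its LFD replicate 3 stood at 1.88 CPM beside 4.53 to 5.21 in the others. Tm7sf2, Ebp and Sc5d, which reduce, isomerise and desaturate the ring, had estimates of 0.28, -0.06 and 0.13. Tm7sf2 shares 12.1% of its exon bases with Vps51 on the same strand, so its values are uncertain.

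Of the 4 genes of SREBP control, Scap rose on KD and Insig1 was higher in every KD library without passing the test. Scap was at 55.4, 58.1 and 55.7 CPM in LFD replicates 1 to 3, at 49.3 and 52.3 in HFD replicates 1 and 2, and at 106.9, 79.2, 91.2 and 68.9 in KD replicates 1 to 4. The LFD libraries lay close together, the KD libraries were spread out above them, and the HFD libraries lay just below. Scap shares 13.2% of its exon bases with 5830462I19Rik on the opposite strand, which had 8 counts over all libraries, beside 11337 for Scap. The LFD mean was 56.4 ± 1.48 CPM (SD, n = 3), the HFD mean 50.8 ± 2.13 (SD, n = 2) and the KD mean 86.6 ± 16.3 (SD, n = 4). KD exceeded LFD by 0.62 ± 0.15 (SE) on the log2 scale (95% interval 0.29 to 0.94, edgeR adjusted p = 0.0438). It was also the single sterol gene called by the joint test over the 3 diets (adjusted p = 0.0442), 1 of 30 or 3.33% beside 2.17% of all genes; Lss stood at 0.0549 there. At an unadjusted p below 0.05 the joint test gave 6 of the 30 (20%), beside 24.6% of all genes.

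The KD levels of Scap ran in the same order as the acinar share of those libraries, highest in replicate 1, then 3, 2 and 4. With the acinar score as a covariate the difference was 0.46 (adjusted p = 0.053). Without KD replicates 1 and 3 it was 0.39 (adjusted p = 0.228). Leaving out any single library but KD replicate 4 ended the call, at adjusted p-values of 0.156, 0.0957 and 0.0807 for LFD replicates 1 to 3, of 0.0647 and 0.0649 for the HFD pair, and of 0.0805, 0.0819 and 0.117 for KD replicates 1 to 3. The estimates then ran from 0.50 to 0.66. With the lymphocyte score the difference was 0.686 ± 0.435 (SE, adjusted p = 0.506). The adjusted p was 0.068 under the 5 CPM filter and 0.0704 with only the KD and LFD libraries in the fit.

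Insig1, which retains SCAP in the endoplasmic reticulum and is itself a target of SREBPs, was at 94.3, 90.8 and 99.6 CPM on LFD, 128 and 78.4 on HFD, and 143.6, 133.5, 139.5 and 109.3 on KD. Every KD library was above every LFD library, and the HFD libraries fell on either side. The difference was 0.47 ± 0.17 (SE, 95% interval 0.10 to 0.84, adjusted p = 0.135), and 0.31 (adjusted p = 0.242) with the acinar score as a covariate. Srebf2, which encodes the SREBP most tied to cholesterol genes, was at 73.3, 90.2 and 89.5 CPM on LFD, 66.6 and 80.0 on HFD, and 98.7, 102.7, 88.7 and 86.0 on KD. Its KD and LFD libraries overlapped, with a difference of 0.16 (adjusted p = 0.51). Insig2, the other INSIG gene, had an estimate of -0.15 (adjusted p = 0.516).

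**Figure D3:**
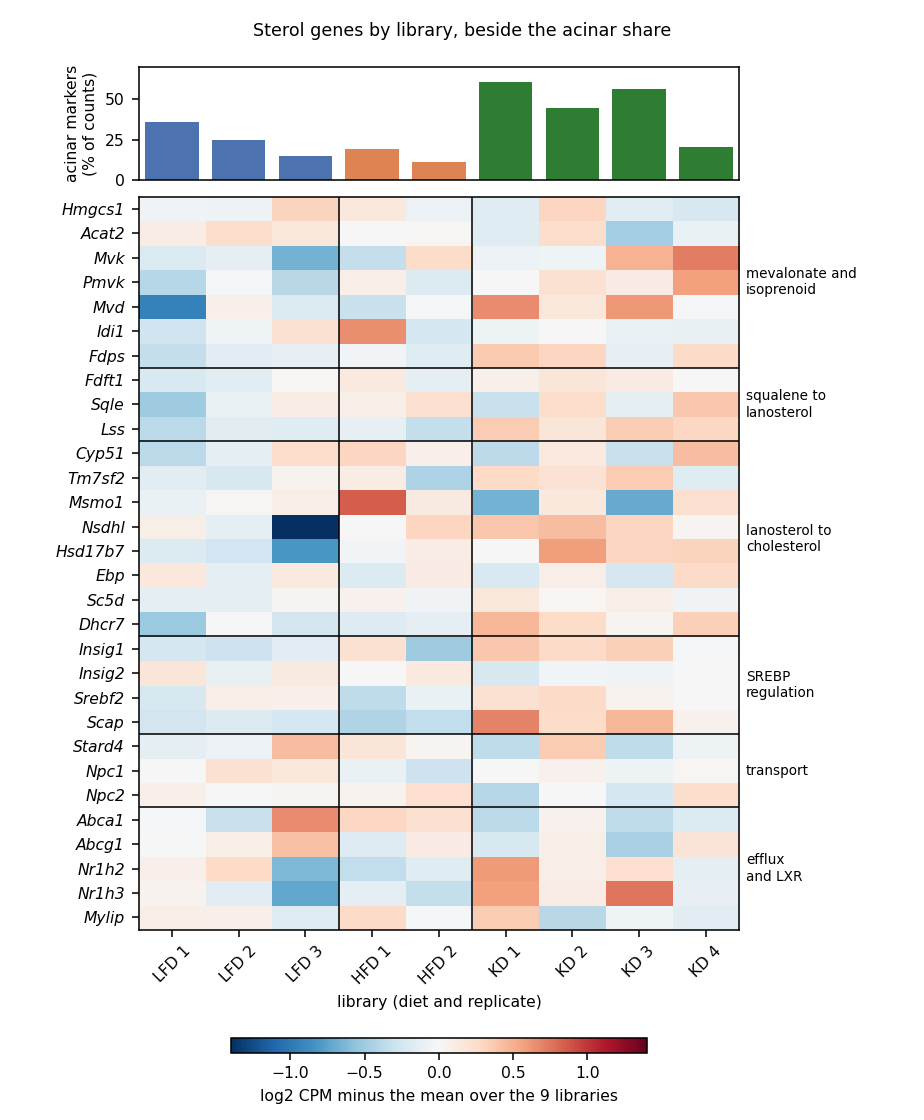
Heat map of log2 CPM minus the mean over the 9 libraries for the 30 sterol genes (rows, by role) in each library (columns), under bars of the percent of counts from 25 acinar markers. KD replicates 1 and 3, at 60.6% and 56.3% acinar counts, share blue cells for Sqle, Cyp51 and Msmo1 and red cells for Scap and Nr1h3.

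Within the KD group, replicates 1 and 3 were both the highest pair of the 4 for 9 of the 30 genes, or 30% beside 25.4% of all genes: Mvd, Lss, Tm7sf2, Sc5d, Insig1, Scap, Nr1h2, Nr1h3 and Mylip. They were both the lowest pair for 13, or 43.3% beside 28% of all genes: Acat2, Pmvk, Sqle, Cyp51, Msmo1, Hsd17b7, Ebp, Insig2, Stard4, Npc1, Npc2, Abca1 and Abcg1. These same libraries had beta cell markers at 1.68% and 2.89% of counts, where the other KD libraries had 5.08% and 12.8%.

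Intracellular cholesterol transport was represented by Stard4, a soluble carrier, and by Npc1 and Npc2, which together export cholesterol from lysosomes. None of the 3 had an unadjusted p below 0.05 between KD and LFD. Npc2 was at 78.2, 74.5 and 76.5 CPM on LFD, 76.9 and 87.8 on HFD, and 56.3, 74.6, 63.2 and 88.6 on KD. Its LFD libraries were nearly equal while its KD libraries spread around them, and the difference was -0.11 (95% interval -0.45 to 0.23, adjusted p = 0.71). Stard4 and Npc1 had estimates of -0.16 and -0.12.

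The 5 genes of export and LXR signalling had 0 calls between KD and LFD by edgeR, by DESeq2 and by limma-voom. In the edgeR test 1 of them, Nr1h3, had an unadjusted p below 0.05 (20%, beside 22.7% of all genes). Nr1h3 encodes LXR alpha, the LXR that macrophages use strongly. It was at 8.77, 7.66 and 5.11 CPM on LFD, 7.70 and 6.75 on HFD, and 12.6, 9.13, 14.2 and 7.84 on KD. KD replicate 4 lay within the LFD range, and the difference of 0.60 ± 0.26 (SE, adjusted p = 0.191) became 0.27 (adjusted p = 0.421) with the acinar score and 0.24 (adjusted p = 0.706) without KD replicates 1 and 3. Abca1, the exporter of cholesterol to apolipoprotein particles and an LXR target, was at 250.6, 204 and 401 CPM on LFD, 309.5 and 294 on HFD, and 195, 263, 197 and 222 on KD. LFD replicate 3 was far above the rest, and the KD and LFD libraries overlapped. The difference was -0.38 (95% interval -0.85 to 0.09, adjusted p = 0.319), and -0.05 (adjusted p = 0.907) without LFD replicate 3. Abcg1, which exports cholesterol to mature lipoproteins, had an estimate of -0.26, Nr1h2, which encodes LXR beta, one of 0.26, and Mylip, a ubiquitin ligase made from an LXR target gene, one of -0.04. Macrophage markers took a lower share of counts on KD by the ranges given above, and their part in these values was not tested.

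On the high fat diet no sterol gene passed the test against the low fat diet: there were 0 calls among the 30 genes by edgeR, by DESeq2 and by limma-voom, and edgeR called 0% of all genes (DESeq2 called 268 genes and limma-voom 10). At an unadjusted p below 0.05 there was 1 sterol gene, Npc1, at 32.7, 37.9 and 36.5 CPM on LFD against 30.7 and 26.9 on HFD. That is 3.33% of the 30, beside 9.99% of all genes. Npc1 was lower on HFD by -0.31 (95% interval -0.62 to -0.01, adjusted p = 0.49). The libraries did not overlap for 5 sterol genes, or 16.7% beside 27.5% of all genes. Msmo1 and Hsd17b7 were the higher ones, and Acat2, Scap and Npc1 the lower ones. Msmo1 was at 76.5 and 46.5 CPM on HFD, beside 45.7 CPM in the highest LFD library and its difference was 0.52 ± 0.30 (SE, adjusted p = 0.574); HFD replicate 1 was far above the other HFD library. Lss differed by 0.01 (95% interval -0.31 to 0.33) and Scap by -0.15 (-0.54 to 0.24). Lss and Scap are named here because they were called on KD, and both comparisons share the LFD libraries. These intervals therefore do not compare the fat-rich diets with each other, and that difference is tested next.

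KD was compared directly with HFD in the same fit. This comparison shares the KD libraries with the one against LFD, so the values stand side by side and are not independent. By edgeR 0 of the 30 genes were called, as were 0% of all genes. DESeq2 called 2, Lss and Scap, beside 7.32% of all genes (1358), and limma-voom called 0 genes. Scap was higher on KD than on HFD by 0.77 ± 0.17 (SE, 95% interval 0.39 to 1.15, adjusted p = 0.124), beside 0.62 against LFD. Lss was higher by 0.52 ± 0.14 (SE, 0.21 to 0.83, adjusted p = 0.124), beside 0.53 against LFD. For both genes the KD libraries lay above both HFD libraries.

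At an unadjusted p below 0.05 there were 5 sterol genes between KD and HFD, or 16.7% beside 22.7% of all genes. Besides Lss and Scap these were Srebf2 at 0.36 (adjusted p = 0.192), Dhcr7 at 0.44 (adjusted p = 0.213) and, in the lower direction, Msmo1 at -0.70 (adjusted p = 0.174). The KD and HFD libraries did not overlap for 9 sterol genes, or 30% beside 33.9% of all genes. Of these 7 were higher on KD (Lss, Dhcr7, Srebf2, Scap, Npc1, Nr1h2 and Nr1h3) and 2 lower (Insig2 and Abca1). The median difference was 0.11 over the 30 genes and -0.04 over all genes.

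Per kilobase of exon, which lets genes be compared with each other, the 30 genes spanned a wide range on LFD, from 0.760 CPM per kb for Hsd17b7 to 30.7 for Insig1. Abca1 followed at 27.5, then Npc2 at 14.1 and Srebf2 at 11.7. Sqle at 9.97 and Hmgcs1 at 9.61 were the most abundant enzymes, and their LFD libraries overlapped on this scale. Lss stood at 2.55 CPM per kb on LFD and 3.68 on KD, and Scap at 7.58 and 11.6. On KD the same scale put Insig1 at 42.5 and Abca1 at 21.2, and neither gene passed the test between the diets. Lengths were the union of exons in GENCODE M21, which is not the annotation the authors counted on, so the order of close neighbours is approximate.

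**Figure D4:**
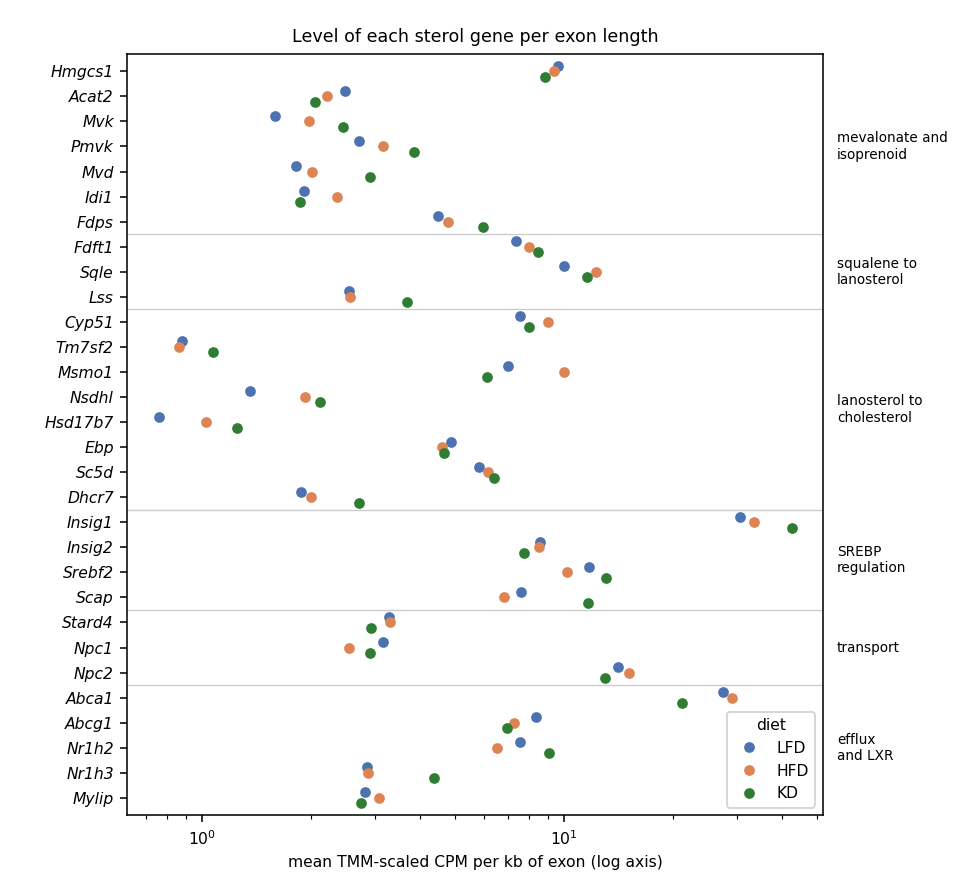
Mean level of each of the 30 sterol genes on each diet in TMM-scaled CPM per kilobase of exon, on a log axis, grouped by role. Insig1 and Abca1 are the highest on every diet, Hsd17b7 and Tm7sf2 the lowest, and the green KD points of Lss and Scap lie to the right of the others.

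Around the 30 genes, 69 further genes of sterol and isoprenoid handling were tested in 6 lists: SREBP processing and sterol-regulated degradation (14 genes), isoprenoid use (13), other sterol enzymes (12), esterification and storage (5), uptake and transport (16), and LXR partners and targets (9). In KD against LFD 1 of the 69 passed the test (1.45%, beside 4.12% of all genes): Arl4c, a small GTPase encoded by an LXR target gene. Arl4c was at 7.73, 7.71 and 6.38 CPM on LFD, 4.10 and 5.61 on HFD, and 3.50, 3.70, 2.76 and 3.67 on KD. It fell on KD without overlap, by 1.08 ± 0.22 (SE) on the log2 scale (adjusted p = 0.0234). At an unadjusted p below 0.05 there were 18 of the 69 (26.1%, beside 22.7% of all genes), of which 13 were higher and 5 lower, and the median over the 69 was 0.15. The list of SREBP processing had 5 of 14 at that level (35.7%, beside the same 22.7%), all higher, and 0 past the adjusted threshold. By edgeR the esterification, isoprenoid, other enzyme and uptake lists each had 0 calls in this comparison, with 3 of 5, 3 of 13, 0 of 12 and 5 of 16 at an unadjusted p below 0.05. HFD against LFD and KD against HFD had 0 calls among the 69 by edgeR, with 6 and 20 at an unadjusted p below 0.05. These are 8.7% beside 9.99% of all genes, and 29% beside 22.7%.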

How the data were processed

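RNA from islets was extracted with Trizol and chloroform, and poly(A) RNA was made into directional libraries, per the labels' protocols. The authors deposited raw counts per gene, whole numbers in 1 column per library. The submitters' processing notes name cutadapt 1.16, STAR 2.7.9a, featureCounts 1.6.3, DESeq2 1.40.2 and build GRCm39 (mm39); the annotation and strand setting of the counting are not given in the sources used here. Reads of overlapping genes therefore cannot be told apart. Symbols came from GENCODE M21 for 51948 of 56941 identifiers. In R 4.3.3, edgeR 4.0.16 (filterByExpr, TMM, robust quasi-likelihood fit of all 9 libraries with a mean per diet) gave two-sided tests, adjusted by Benjamini-Hochberg over 18548 genes with a threshold of 0.05. The SE is the log2 fold change over the square root of F. Tested genes held at least 99.86% of counts. Marker shares were compared by exact permutation. The procedure was tested on simulated data. Alternatives were DESeq2 1.42.0, limma-voom with sample quality weights (limma 3.58.1), other scalings and filters, covariates, a replicate block and leaving out libraries. Replicates differed beyond sampling noise (smallest chi-square per gene 22.5).

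The 30 genes, the further lists, the markers and the rule for genes given library by library were chosen with earlier results of these data known. That rule takes genes past the threshold in a comparison, the 6 lowest p for KD against LFD, and Insig1, Srebf2, Hmgcs1, Sqle, Cyp51, Abca1, Nr1h3 and Npc2. Other members named with library values were chosen after their values were seen. No label read here gives a batch or date, and batch effects cannot be told apart from diet. Some items are not reported here.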

Additional observations from a re-analysis of the deposited data

Results flagged for a closer look

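Hmgcs1 had 1 KD library apart from the other 3: KD replicate 2 stood at 51.9 CPM beside 35.9 to 37.8. The gap was 0.859 of the range of log2 CPM in that group, above the critical value of Dixon's test for 4 samples. The test was applied to the KD group of each of the 30 genes, and Hmgcs1 alone was flagged. Chance marks about 1 group in 20 in this way, so a flag among 30 groups can be expected by chance. The LFD and HFD groups, with 3 and 2 libraries, were not tested.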

How the results depend on the processing

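For KD against LFD, 2 sterol genes were called. The count was 6 with limma-voom and sample quality weights, changed together (Fdps, Lss, Hsd17b7, Dhcr7, Insig1 and Scap), beside 10.1% of all genes. It was 3 with DESeq2, beside 9.56% of all genes, and 1 (Lss) when only those diets were fitted, beside 3.12%. With the acinar score as a covariate it was again 2, but Lss and Sqle, beside 8.27% of all genes. There Scap had an edgeR adjusted p of 0.053. The count was 0 with at least 5 CPM in 3 libraries (beside 3.31% of all genes) and with the lymphocyte score as a covariate (0%). It was also 0 without KD replicates 1 and 3 (0.351%), a choice made after seeing the data. Under the settings with a count of 0, edgeR gave an unadjusted p below 0.05 to 6 of the 28 genes that the 5 CPM filter left, 4 of 30 and 7 of 30. The share of all genes at that level is not given here for these settings. Leaving out 1 LFD or KD library at a time gave 0 to 2, beside 0.822% to 7.4% of all genes. HFD against LFD had 0 under all 20 alternatives. KD against HFD had 0, but 2 with DESeq2, 1 without the low-count filter, 1 with the replicate block, and 0 to 1 with 1 library left out (Scap without KD replicate 4). The joint test had 1 (Scap), but 2 with DESeq2 (beside 12.6% of all genes), limma-voom (8.58%), no low-count filter (3.93%) or the replicate block (15.2%). It had 0 with the 5 CPM filter, either covariate or without KD replicates 1 and 3 (beside 0% to 4.66%). With 1 LFD or KD library left out it had 0 to 2, beside 0.196% to 10% of all genes. The cause of these changes was not tested.

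Over all genes, KD against LFD called 764 genes, beside 1773 with DESeq2, 1867 with limma-voom, 2003 with the replicate block, 1534 with the acinar score, 383 with the 5 CPM filter, 64 without KD replicates 1 and 3, 0 with the lymphocyte score and 151 to 1348 with 1 library left out. Without KD replicate 4 KD against HFD called 1793 genes, and without LFD replicate 3 HFD against LFD called 194. Lss was past the threshold in 12 of 20 alternatives (log2 0.44 to 0.57, adjusted p 0.00557 to 0.589) and Scap in 7 of 20 (0.39 to 0.71, 0.00912 to 0.506). No called value of the 13 genes changed sign. Of 728 values past the threshold in neither fit, 52 had the other sign. Same-numbered libraries showed no clear pairing: correlations of their deviations were 0.222, -0.016 and -0.003 between LFD and KD. They were 0.069 and 0.075 between LFD and HFD, and 0.038 and 0.081 between HFD and KD. Deviations were taken from the mean of each small group, so these values cannot exclude pairing. With the replicate block KD against LFD called 3 sterol genes (Lss, Insig1 and Scap), beside 10.8% of all genes. The block leaves KD replicate 4 alone in its level. The lowest count of any of the 30 genes in a library was 35 (Mvd). The median KD minus LFD difference of the 30 genes, 0.18, was 0.084 without LFD replicate 1, 0.089 with the 5 CPM filter and 0.021 with the lymphocyte score.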
